A study of Mus musculus with 8 samples.

Results

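The question was which transcripts of the 2-cell mouse embryo depended on an antibody and its ubiquitin ligase being present together. The antibody was directed against COPS3, a subunit of the COP9 signalosome, and the ligase was TRIM21, supplied as injected Trim21 mRNA. The measure was the interaction of the 2: for each gene, the difference that the antibody made in embryos with Trim21 mRNA minus the difference that it made without. All 8 arrays of the series enter it, and it was computed for 30701 genes. At an adjusted p under 0.05 the interaction was called for 1253 of them (4.08% of genes), below 0 for 1061 (3.46%) and above 0 for 192 (0.625%). Predicted, clone, small RNA and other symbols that were counted but not named (defined below) make up 13565 of the 30701 genes. Outside them lie 538 of the 1061 genes called lower and 83 of the 192 called higher.

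TRIM21 binds the constant part of antibodies inside cells, and it ubiquitinates the antibody together with the protein it holds, so that both are passed to the proteasome. Supplying Trim21 mRNA with an antibody is therefore a way to remove a protein already present in an oocyte or zygote, where deleting the gene would leave stored protein in place. The COP9 signalosome removes the ubiquitin-like protein NEDD8 from cullins, the scaffolds of a large class of ubiquitin ligases. At the late 2-cell stage the mouse embryo replaces transcripts stored by the oocyte with those of its own newly active genome.

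Each array held RNA from a pool of 100 embryos of the B6C3F1 x CD1 background, and each group had 2 pools. The 4 groups were non-manipulated embryos, embryos given Trim21 mRNA, embryos given only the anti-COPS3 antibody, and embryos given the mRNA together with that antibody (the combined group). Injection was into the ooplasm at the mid-pronuclear stage; culture lasted 28 h in the protocol, and the age label gives 24 h. The protocol text names the mRNA injection and the combined injection but not that of the antibody alone. Non-manipulated embryos were not injected, and no group received an unrelated antibody. The labels record normal 2-cell formation in both groups without antibody, and stunted formation with many undivided zygotes in both groups with it. Each group was treated on a day of its own, and both pools of a group shared the day, so day and group cannot be told apart. The p-values therefore measure the spread between pools of 1 day. In bulk RNA of such pools, fewer embryos that reached a stage and less RNA per embryo cannot be told apart.

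Values are log2 array levels. An interaction of −1 means that the ratio of antibody to its control was 2-fold lower with Trim21 mRNA than without it. A negative value can come from a larger fall with Trim21 mRNA or from a rise with antibody alone. Trim21 itself showed that the mRNA was delivered in the labelled groups. Its level was 6.27 and 5.65 in the non-manipulated pools and 9.77 and 10.14 with Trim21 mRNA. It was 6.76 and 6.37 with antibody alone and 10.40 and 10.30 in the combined pools. The interaction of Trim21 was −0.21 ± 0.37 (SE; limma, Benjamini-Hochberg adjusted p = 0.91). Trim21 was also the 1 gene called between Trim21 mRNA and non-manipulated embryos (0.00326% of genes in either direction). With Trim21 mRNA the antibody contrast called 7126 genes (23.2%), 8.73% of all genes higher and 14.5% lower, and without it 3083 (10.0%), 2.76% higher and 7.29% lower.

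The antibody-alone pools lay far apart: 4615 genes differed over 2-fold between them, against 49, 97 and 809 in the non-manipulated, Trim21 mRNA and combined groups. Array medians over all clusters ran from 4.75 to 5.29. On 3 arrays (both combined pools and antibody-alone pool 1) the highest value was shared by 136 to 169 clusters, a ceiling that touched at most 11 genes an array. Genes called in the interaction had a median gap between the antibody-alone pools of 0.29 if lower and 0.30 if higher, against 0.42 for all genes. A call favours genes with a small spread within groups, so a smaller gap follows from the selection. For the genes called lower, the median against non-manipulated embryos was −0.68 in antibody-alone pool 1 and −0.65 in pool 2, and the combined group was at −2.80 against Trim21 mRNA. All 1253 called genes had array differences that did not overlap between the 2 contrasts. The call itself rests on the same arrays, so this count is no separate support, and the share over all genes was not counted.

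Most called genes also differed with the antibody alone, and differed more when Trim21 mRNA was present. Of the 1253, 664 differed by at least 0.5 in the same direction in both contrasts and by more with Trim21 mRNA (639 lower, 25 higher), a class named larger with both. A class of 346 (27.6%) had a difference only where both components were present, by size. Their antibody difference with Trim21 mRNA was at least 1, while those of antibody alone and of Trim21 mRNA alone were under 0.5. Of these both-components genes 288 were lower, with a median of −2.01 with Trim21 mRNA and −0.20 with antibody alone, and 58 were higher, with medians of 1.73 and 0.03. None of the 346 was called with antibody alone (27 had an unadjusted p under 0.05), but their median SE there was 0.19, so smaller changes cannot be seen, and 130 genes of otherwise the same kind lay just outside, at 0.5 to 0.75 with antibody alone. Arrays were also rescaled in 3 ways (median centring, quantile normalization and cyclic loess): 666 of the 1253 calls (545 lower and 121 higher) and 176 of the 346 kept call and direction under all 3, here said to hold under all scalings.

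The other called genes took other courses. For 106 the antibody difference had opposite directions in the 2 contrasts (52 lower and 54 higher in the interaction). A class of 77 matched the both-components class except that the Trim21 mRNA group itself was at least 0.5 away from the non-manipulated embryos. Over all classes 261 called genes (20.8%) had a Trim21 mRNA difference of that size, 101 of the larger-with-both and 63 of the opposite genes among them. For 30 the antibody changed the level on its own and not with Trim21 mRNA, for 8 the change was smaller with both, and 22 fell in none of these classes.

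**Figure D1:**
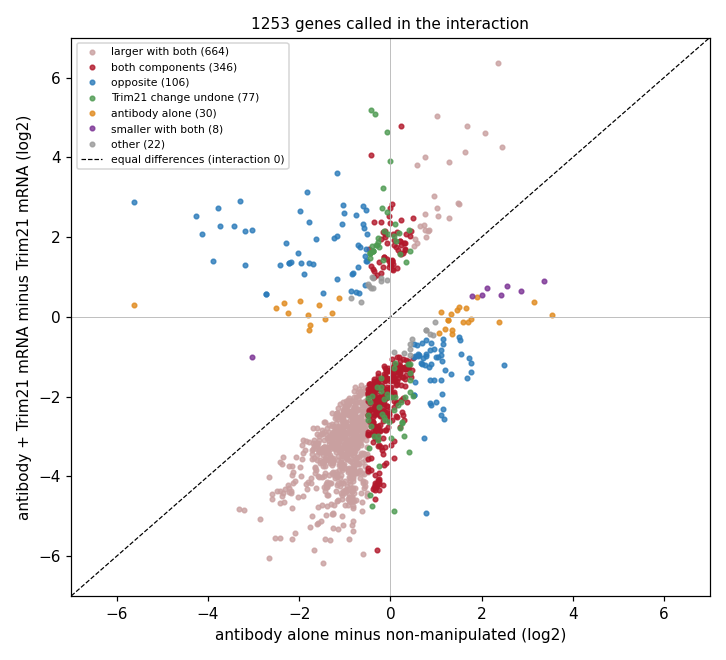
Antibody difference without Trim21 mRNA (horizontal, log2) against that with it (vertical, log2) for the 1253 genes called in the interaction, 1 point a gene, coloured by class with the number of genes. Points below the dashed line have a negative interaction; the 639 genes lower in both contrasts form the largest group and the 346 both-components genes lie in the band around 0 on the horizontal axis.

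The promoters of 4 genes of protein synthesis and degradation are shown because their 3 lists (ribosome assembly, proteasome and cytosolic ribosomal proteins) had the most negative medians of all lists. RefSeq promoter windows (GRCm38.p6; 250 bases before to 50 after the annotated start) were searched on both strands for 4 motifs: CCGGAAG, a core bound by ETS factors; CACGTG, the E-box bound by MYC and USF factors; ATGGCGG, a core of YY1 sites; and the palindrome of NRF1 sites. The stretches are the 250 bases before the start, 5′ to 3′, in lower case with the motif in capitals (CTTCCGG is CCGGAAG read from the other strand). They were taken as the called genes with the most negative interaction in their list that hold CCGGAAG there, and for CACGTG the one in the ribosome assembly list.
Wdr74, chr19:8735589-8735838, plus strand: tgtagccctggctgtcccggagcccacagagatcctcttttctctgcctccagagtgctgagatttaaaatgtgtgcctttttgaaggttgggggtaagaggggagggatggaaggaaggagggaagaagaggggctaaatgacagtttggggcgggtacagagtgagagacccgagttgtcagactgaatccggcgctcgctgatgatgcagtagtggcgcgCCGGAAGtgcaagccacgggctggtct
Nol11, chr11:107189382-107189631, minus strand: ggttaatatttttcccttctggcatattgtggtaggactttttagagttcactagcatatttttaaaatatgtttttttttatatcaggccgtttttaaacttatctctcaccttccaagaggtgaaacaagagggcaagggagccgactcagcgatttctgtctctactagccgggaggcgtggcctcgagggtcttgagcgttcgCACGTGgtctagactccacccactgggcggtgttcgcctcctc
Psmd12, chr11:107479278-107479527, plus strand: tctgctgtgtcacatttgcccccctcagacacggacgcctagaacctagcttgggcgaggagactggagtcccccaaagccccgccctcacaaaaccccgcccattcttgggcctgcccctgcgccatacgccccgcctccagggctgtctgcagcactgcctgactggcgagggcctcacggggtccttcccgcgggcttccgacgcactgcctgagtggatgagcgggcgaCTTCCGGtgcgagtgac
Rpl35, chr2:39005132-39005381, minus strand: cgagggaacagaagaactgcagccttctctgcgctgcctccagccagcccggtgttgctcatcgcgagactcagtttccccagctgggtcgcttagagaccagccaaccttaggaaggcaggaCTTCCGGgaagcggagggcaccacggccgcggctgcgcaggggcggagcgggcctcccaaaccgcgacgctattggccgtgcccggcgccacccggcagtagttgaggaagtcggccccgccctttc

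The motif CCGGAAG was in 39.8% of 93 promoters of the ribosome assembly list (77 of its 93 genes were matched), in 44.4% of 27 proteasome promoters (25 of 31 genes) and in 40.5% of 37 promoters of cytosolic ribosomal proteins (30 of 35 genes). It was in 8.86% of all 32851 promoters of the table and in 20.3% of 4996 promoters of genes with a mean level of at least 8. Over the called genes with a promoter, it was in 26.7% of 536 promoters of genes called lower (461 of 1061 genes were matched). It was in 4.46% of 112 promoters of genes called higher (78 of 192 genes) and in 6.94% of 72 maternal promoters (57 of 69 genes). CACGTG was in 21.5% of ribosome assembly promoters, 3.70% of proteasome, 8.11% of ribosomal protein and 5.56% of maternal promoters, against 7.15% of all and 10.9% at a level of at least 8. ATGGCGG was in 16.1%, 11.1%, 8.11% and 1.39% of those lists in the same order, against 4.05% of all promoters and 9.29% at that level. The NRF1 palindrome was in 13 of 93 ribosome assembly promoters and in 22.2%, 10.8% and 2.78% of the other lists, against 4.60% and 11.7%. These are counts of letters in a window and were not tested, and several promoters of a gene count separately.

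Genes that build ribosomes were among those most often called lower. Of 93 measured ribosome assembly genes 30 were called lower and none higher, with a median interaction of −1.13 against 0 for all genes. Calls were more frequent among abundant transcripts, so a list's share is set beside that of genes of like level, where each member is given the percent called among all genes within its range of mean level. For ribosome assembly 32.3% was called lower against 12.8% at like level. Their median was −1.28 with antibody alone and −2.56 with antibody and Trim21 mRNA, so the list was low with antibody alone too. Of the 30, 25 were larger with both and 5 were of the both-components class; 11 calls held under all scalings, 1 of the 5 among them.

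Nop14, a factor of the small-subunit processome that matures the small ribosomal subunit, shows the common course. Its level was 11.43 and 11.54 in non-manipulated pools, 11.04 and 10.92 with Trim21 mRNA, 10.65 and 10.65 with antibody alone and 7.72 and 7.46 in the combined pools. The combined pools lay far below every other pool, and the interaction was −2.56 ± 0.22 (limma, adjusted p = 0.0041). Nop58, a core protein of the particles that methylate ribosomal RNA, had an interaction of −2.40 ± 0.24, and Nol11, another processome factor, −2.40 ± 0.34. Wdr74 of the large-subunit pathway was at −3.02 ± 0.49, where antibody-alone pools at 11.48 and 12.61 were below the non-manipulated pools at 14.64 and 14.48 too; loess took its adjusted p to 0.054.

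The 5 ribosome assembly genes of the both-components class were Ddx56, Brix1, Noc3l, Nhp2 and Npm1. Brix1, a large-subunit assembly factor and the 1 of them that held under all scalings, was at 14.84 and 14.78 without manipulation, 14.46 and 14.30 with Trim21 mRNA, 14.19 and 14.56 with antibody alone and 11.97 and 11.52 with both. Its first 3 groups lay close together, the combined pools were below them, and the interaction was −2.20 ± 0.30 (adjusted p = 0.013). Npm1, the abundant nucleolar chaperone nucleophosmin, had −1.53 ± 0.22 as deposited. Quantile normalization brought it to −0.70 (adjusted p = 0.082) and loess to −0.41 (adjusted p = 0.38). Gtpbp4, a nucleolar GTPase of the same pathway outside the list, was named for its class, with an interaction of −3.23 ± 0.51. Its mean antibody-alone difference of 0.01 joins pools at 13.59 and 12.50, on either side of the non-manipulated pools at 13.16 and 12.91. The call of Gtpbp4 ended after cyclic loess (adjusted p = 0.061).

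Cytosolic ribosomal proteins had the lowest median of any list, −1.51, with 17 of 35 measured genes called lower, 48.6% against 17.2% at like level (37 further genes lie on clusters shared with other genes). Rpl4 was at 16.68 and 16.65 without manipulation, 16.81 and 16.80 with Trim21 mRNA, 15.92 and 15.83 with antibody alone and 13.92 and 13.73 with both. The 4 groups did not overlap, and the combined pools were lowest; the interaction was −2.19 ± 0.21 (adjusted p = 0.0052). Of the 17, 15 were larger with both, Rpl12 was of the class with a Trim21 mRNA difference and Rps3a1 of the both-components class; 9 calls held under all scalings, that of Rps3a1 among them. Of 74 mitochondrial ribosomal proteins 4 were called lower (5.41% against 4.91% at like level), and none of the 4 calls held under all scalings. Their median was −0.15, with a larger spread of that median between pools, 0.29.

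Translation factors followed at a median of −0.80, with 8 of 39 called lower (20.5% against 15.6% at like level). They held 5 subunits of initiation factor 3, Eif3m (−3.19 ± 0.33), Eif3e, Eif3h, Eif3a and Eif3i, and 4 of the 8 calls held under all scalings. Eif4e, which binds the cap of mRNA, was of the both-components class, at −1.96 ± 0.21. Its antibody-alone pools were at 15.57 and 15.60, level with the non-manipulated pools at 15.59 and 15.50. The combined pools were at 13.50 and 13.41, below the Trim21 mRNA pools at 15.45 and 15.29. Quantile normalization brought the interaction to −1.17, and loess ended the call (adjusted p = 0.054).

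The proteasome, which degrades the proteins that TRIM21 marks, had 13 of 31 measured genes called lower and none higher (41.9% against 13.8% at like level), with a median of −1.24. All 13 were larger with both, and 8 calls held under all scalings. The list was at a median of −0.99 with antibody alone and −2.17 with Trim21 mRNA. Psmc5, an ATPase of the base, was at 11.90 and 11.87 without manipulation, 11.37 and 11.00 with Trim21 mRNA, 11.14 and 11.19 with antibody alone and 7.41 and 7.11 with both. Antibody alone and Trim21 mRNA gave overlapping levels, and the combined pools were below both; the interaction was −3.21 ± 0.27 (adjusted p = 0.0036). Psmd12 of the lid had −3.52 ± 0.38, Psma3 of the core particle −2.94 ± 0.23, and Pomp, the chaperone that assembles the core, −2.85 ± 0.47.

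**Figure D2:**
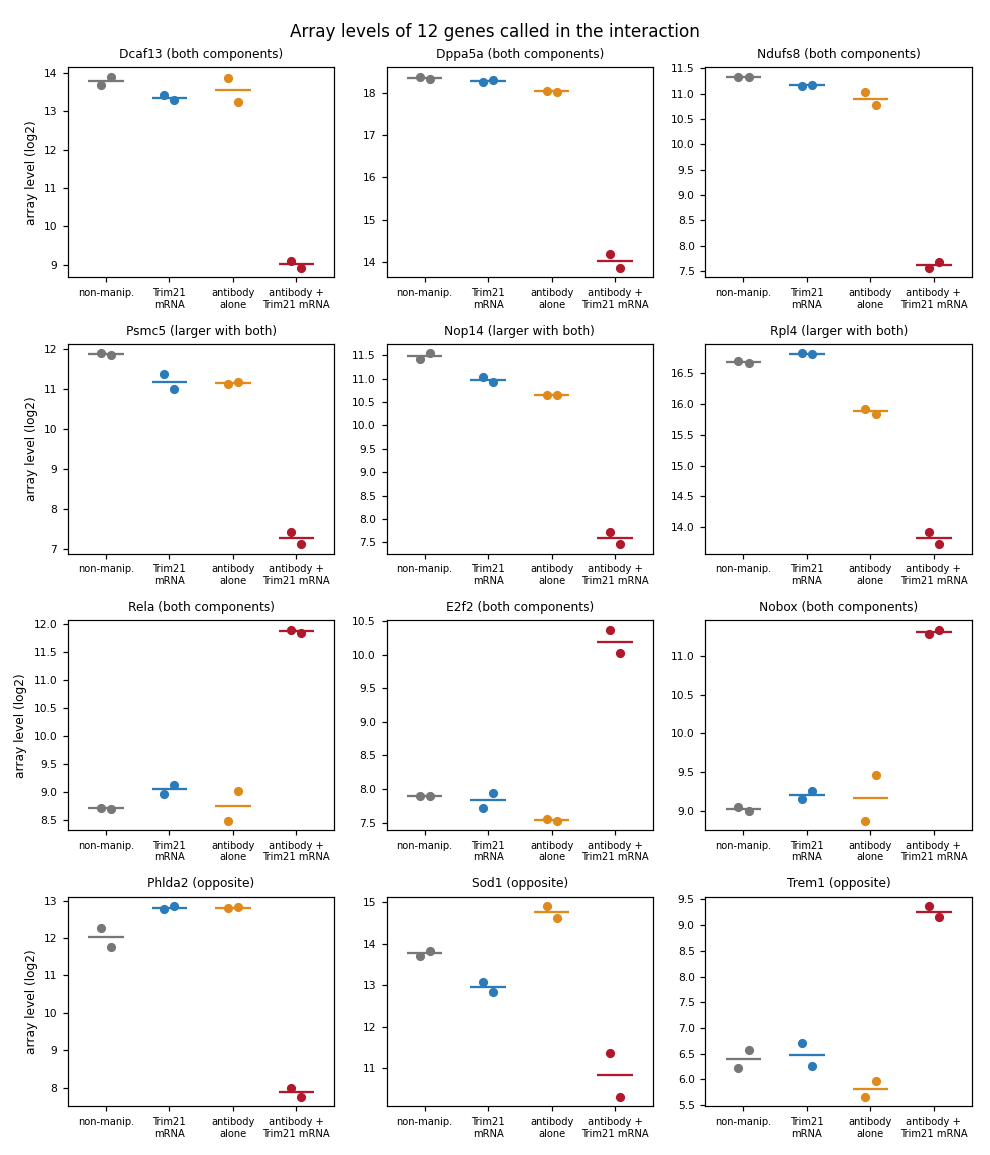
Array levels (log2, each panel with its own axis, not starting at 0) of 12 genes in the 4 groups; points are the 2 pools and lines their mean. In the 6 upper panels the combined pools are lowest, in Rela, E2f2, Nobox and Trem1 they are highest, and in Phlda2 and Sod1 the antibody-alone pools lie above the non-manipulated pools while the combined pools lie far below the Trim21 mRNA pools.

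The ligase system that COP9 regulates gave few calls. Of 36 measured cullin-RING and neddylation genes 4 were called lower and none higher (11.1% against 11.9% at like level), with a median of −0.44. The both-components class held 2 of the 4, Dcaf13 and Cul3, and 27.6% of all called genes. The most negative was Dcaf13, an adaptor of cullin-4 ligases that also serves ribosomal RNA processing. It was at 13.68 and 13.89 without manipulation, 13.41 and 13.29 with Trim21 mRNA, 13.86 and 13.24 with antibody alone and 9.10 and 8.92 with both. Only the combined pools were low, and the interaction of −4.11 ± 0.33 (adjusted p = 0.0036) is a 17.2-fold ratio between the 2 antibody effects. Cul3, a cullin scaffold, had antibody-alone pools at 12.06 and 11.74 beside non-manipulated pools at 11.83 and 11.81, combined pools at 9.86 and 9.64, and an interaction of −1.97 ± 0.26. Nedd8 (−2.17 ± 0.36) and the RING protein gene Rnf7 (−1.57 ± 0.30) were larger with both, and the call of Rnf7 ended after quantile normalization (adjusted p = 0.17) and loess (adjusted p = 0.30).

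Of the 10 COP9 subunits 1 was called, in the lower direction (10.0% against 12.4% at like level). Cops6 was at 12.41 and 12.35 without manipulation, 12.48 and 12.27 with Trim21 mRNA, 11.59 and 11.44 with antibody alone and 9.65 and 9.53 with both, with an interaction of −1.92 ± 0.22 (adjusted p = 0.0076). Cops3 mRNA, which codes for the targeted protein, had an interaction of −0.10 ± 0.23 (adjusted p = 0.94). The list median of −0.37 turned to 0.11 after quantile normalization and to 0.04 after loess.

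Genes of protein folding and energy supply were called lower too. Of 37 chaperone genes 9 were called lower (24.3% against 12.6% at like level), with a median of −1.05; 6 were larger with both, among them the chaperonin subunits Cct2 (−2.81 ± 0.39) and Cct3 (−1.73 ± 0.25; adjusted p = 0.087 after loess). The other 3 were of the both-components class: Hsp90aa1, the inducible cytosolic HSP90, the mitochondrial chaperonin Hspd1 and Dnajc2, of which Hsp90aa1 held under all scalings. It was at 15.11 and 15.10 without manipulation, 14.95 and 14.73 with Trim21 mRNA, 14.99 and 15.06 with antibody alone and 13.00 and 12.63 with both. The first 3 groups lay close together, and the interaction was −1.95 ± 0.25 (adjusted p = 0.012).

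Of 72 nuclear genes of oxidative phosphorylation 10 were called lower (13.9% against 8.06% at like level), with a median of −0.60, and 4 of the 10 were of the both-components class (Ndufs8, Cox8a, Atp5o and Uqcrb, the first pair of which held under all scalings). Ndufs8, an iron-sulfur subunit of complex I, was at 11.33 and 11.33 without manipulation, 11.16 and 11.17 with Trim21 mRNA, 11.03 and 10.78 with antibody alone and 7.56 and 7.68 with both. Its interaction was −3.12 ± 0.22 (adjusted p = 0.0029). Ndufa1 (−2.69 ± 0.34) and Ndufa4 (−2.48 ± 0.32) were of the opposite class: their antibody-alone differences were 1.10 and 1.55 and those with Trim21 mRNA −1.59 and −0.92. Pdhb, a subunit of pyruvate dehydrogenase that feeds the same pathway, was among the 12 most negative genes named by rule, at −3.77 ± 0.30, and also of the opposite class. Of 11 pyruvate dehydrogenase genes looked up after their values were seen, 2 were called lower (3.46% of all genes were). The median of the 11 was 0.04. None of 17 glycolysis genes was called by limma, where 5.65% were called lower and 0.885% higher at like level. The glycolysis median was −0.10, and Gapdh was at −0.46 ± 0.21 (unadjusted counts over all genes were 3047 lower and 1456 higher at p under 0.05).

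Autophagy and lysosome genes gave 8 of 44 called lower (18.2% against 10.9% at like level) and a median of −0.56. Calcoco2, an autophagy receptor, was the most negative of them, at −4.25 ± 0.46 (limma, adjusted p = 0.0066). Its pools were at 15.74 and 15.67 without manipulation, 15.78 and 15.64 with Trim21 mRNA, 14.50 and 14.24 with antibody alone and 10.64 and 9.60 with both. Both antibody contrasts were negative, and every combined pool was below every antibody-alone pool. Lamp2 of the lysosomal membrane (−2.40 ± 0.23) and Atg14, a subunit of the kinase complex that starts autophagosomes (−2.81 ± 0.53), were larger with both. Under all scalings 2 of the 8 calls held, those of Calcoco2 and Lamp2, and that of Atg14 had an adjusted p of 0.077 after quantile normalization.

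The lists of RNA synthesis, splicing and nuclear transport held called genes in shares closer to those at like level than the ribosome and proteasome lists: 15.9% of RNA polymerase II genes were called lower against 12.3%, 16.4% of splicing genes against 11.7%, and 10.4% of nuclear pore and transport genes against 12.8%. Of 44 genes of RNA polymerase II and its general factors 7 were called lower (median −0.43), with the polymerase subunits Polr2d (−3.06 ± 0.27) and Polr2h (−3.08 ± 0.34) most negative. Polr2h was of the both-components class, as was Ccnh (−1.98 ± 0.22), the cyclin of the kinase in TFIIH, whose antibody-alone pools at 9.37 and 9.41 lay beside 9.54 and 9.50 without manipulation and whose combined pools were at 7.32 and 7.04. Of 55 splicing genes 9 were called lower (median −0.57), led by Crnkl1 (−2.55 ± 0.49; adjusted p = 0.070 after quantile normalization) and Hnrnpm (−2.40 ± 0.26), the 1 of them whose call held under all scalings. Of 48 genes of the nuclear pore and transport 5 were called lower and 1 higher (median −0.61): the importin Kpna2 was at −2.17 ± 0.21, and the oocyte importin Kpna7 at 1.58 ± 0.19. The call of Kpna2 ended after loess (adjusted p = 0.054).

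Of genes of cell division, 11.5% of the mitotic list were called lower against 13.8% at like level, and 15.4% of the DNA replication list against 10.7%. The labels call cleavage stunted with antibody, whether or not Trim21 mRNA was given. Of 61 mitotic genes 7 were called lower (median −0.44) and of 52 DNA replication genes 8 (median −0.40). The spread of these medians between pools was 0.41 and 0.44, about as large as the medians. Cdc25c, the phosphatase that activates CDK1 at mitotic entry, was of the both-components class. It was at 10.36 and 10.28 without manipulation, 10.08 and 9.91 with Trim21 mRNA, 9.74 and 10.21 with antibody alone and 7.26 and 7.13 with both, with an interaction of −2.46 ± 0.28 (adjusted p = 0.0071). Cdk1 itself had −2.19 ± 0.24 and was larger with both, as was the replisome subunit Gins3 (−2.21 ± 0.26), whose antibody-alone difference was −2.87. The replication inhibitor geminin, Gmnn (−2.25 ± 0.34), had a Trim21 mRNA difference of −0.71. The share of undivided embryos in each pool was not analysed here, and its part in these values was not tested.

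**Figure D3:**
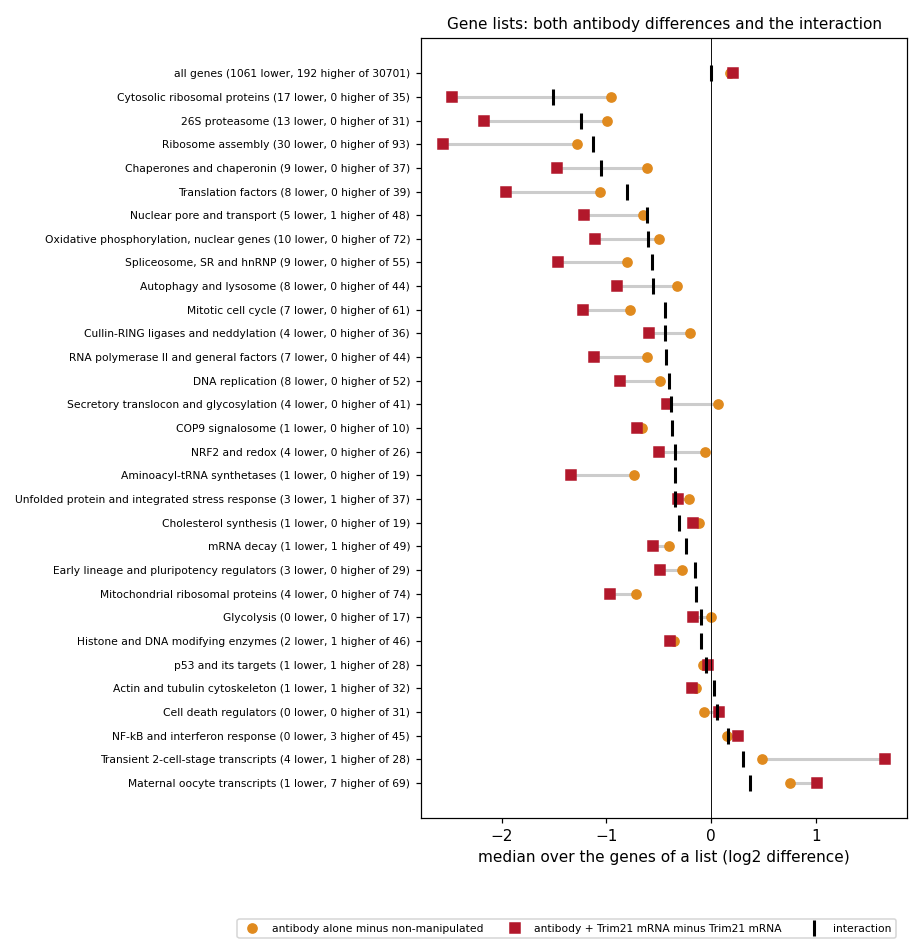
Medians over the genes of each list (log2) of the antibody difference without Trim21 mRNA (circles), with it (squares) and of the interaction (bars), with the number of genes called lower and higher in the interaction. The ribosomal protein, proteasome and ribosome assembly lists are at −1.51 to −1.13, the maternal list is at 0.37, and in the lists with the most negative squares the circles lie below 0 too.

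Genes with a positive interaction were fewer, and oocyte transcripts and NF-kB subunits were among them. Of 69 maternal genes 7 were called higher (10.1% against 1.85% at like level) and 1, the homeobox gene Obox6 (−2.02 ± 0.23), lower. The list median was 0.37, and 0.90 after quantile normalization, where 20 were called higher; as deposited 3 of the 7 held under all scalings. Nobox, a transcription factor of oocytes, was at 9.04 and 8.99 without manipulation, 9.15 and 9.25 with Trim21 mRNA, 8.87 and 9.46 with antibody alone and 11.29 and 11.34 with both. Only the combined pools lay above all others, and the interaction was 1.97 ± 0.30 (adjusted p = 0.018). Npm2, the oocyte's nuclear chaperone (2.16 ± 0.35), and Oog4 (2.56 ± 0.49) were also of the both-components class, and Oog4 lost its call after loess (adjusted p = 0.051). The list median was 0.75 with antibody alone, 1.01 with antibody and Trim21 mRNA, and −0.24 with Trim21 mRNA alone, so the list was high with antibody alone too. Its interaction median of 0.37 was no larger than the spread of that median between pools, 0.39.

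The 28 transient 2-cell-stage transcripts, a burst that marks genome activation, went both ways, with 14.3% called lower against 15.6% at like level and 3.57% higher against 1.76%. Tcstv3 was called higher, at 1.57 ± 0.30, while Pramel6, Pramel7, Spz1 and Sp110 were called lower (−2.29 ± 0.46 to −1.47 ± 0.23). The call of Tcstv3 held under all scalings and those of the other 4 did not: after loess their adjusted p was 0.053, 0.051, 0.072 and 0.41. The list median was 0.30, with 0.48 for antibody alone and 1.66 with Trim21 mRNA, and its spread between pools was larger, 0.56.

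Rela, which codes for the activating subunit p65 of NF-kB, was at 8.72 and 8.70 without manipulation, 8.97 and 9.13 with Trim21 mRNA, 8.49 and 9.02 with antibody alone and 11.90 and 11.84 with both. The interaction of 2.77 ± 0.29 (adjusted p = 0.0058) is a 6.84-fold ratio, and neither component alone reached the combined level. Nfkb2, another NF-kB subunit, had smaller values: its first 3 groups lay between 5.52 and 5.68, the combined pools were at 6.90 and 6.82, and the interaction was 1.18 ± 0.20 (adjusted p = 0.028). Tlr9, a sensor of DNA, was called higher too (2.08 ± 0.38), but its Trim21 mRNA pools at 7.70 and 7.20 were below the non-manipulated pools at 8.57 and 8.63, and median centring took its adjusted p to 0.054. No other of the 45 NF-kB and interferon genes was called. The 3 are 6.67% of the list against 0.479% called higher at like level, and the median was 0.16. No gene of the 31 cell death regulators was called by limma (median 0.05), where 4.22% were called lower and 0.901% higher at like level.

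E2f2, a cell cycle transcription factor, was at 7.90 and 7.90 without manipulation, 7.72 and 7.94 with Trim21 mRNA, 7.56 and 7.53 with antibody alone and 10.37 and 10.02 with both. It was of the both-components class, with an interaction of 2.72 ± 0.25 (adjusted p = 0.0046). The kinase gene Pak4 (2.35 ± 0.38), Lratd2 (2.19 ± 0.23) and Maea (2.24 ± 0.29), a subunit of the CTLH ubiquitin ligase, were among the 12 most positive genes named by rule. Maea had a Trim21 mRNA difference of −0.63.

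Dppa5a was the most abundant both-components gene named by rule, an RNA-binding protein gene of early embryos and pluripotent cells. It was at 18.38 and 18.33 without manipulation, 18.27 and 18.30 with Trim21 mRNA, 18.06 and 18.03 with antibody alone and 14.19 and 13.86 with both. The interaction was −3.95 ± 0.23 (adjusted p = 0.0023), a 15.5-fold ratio. Dppa4 had −3.52 ± 0.26 and was larger with both. The small GTPase gene Rab24 (−4.07 ± 0.45) and Wdyhv1 (−3.27 ± 0.55), an enzyme that deamidates N-terminal glutamine, completed the 5 most negative of the class with Dcaf13 and Gtpbp4. For Rab24 the antibody-alone pools at 10.66 and 9.61 lay on either side of the non-manipulated pools at 10.28 and 10.31. Those of Wdyhv1, at 11.36 and 10.36, lay on either side of 11.02 and 11.02. Wdyhv1 lost its call after quantile normalization (adjusted p = 0.055).

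Phlda2, an imprinted gene best known as a brake on placental growth, had the most negative interaction of the named genes. It was at 12.27 and 11.77 without manipulation, 12.76 and 12.85 with Trim21 mRNA, 12.79 and 12.82 with antibody alone and 8.00 and 7.75 with both. The mean was 0.78 above the non-manipulated pools with either component alone, neither of which was called, and the combined pools lay far below every other pool. The interaction of −5.71 ± 0.29 (adjusted p = 0.0023) is a 52.5-fold ratio. Of 26 NRF2 and redox genes 4 were called lower (15.4% against 7.61% at like level), and 2 of them, Sod1 and Txn1, took opposite courses in the 2 contrasts. Sod1, a superoxide dismutase, had antibody-alone pools at 14.91 and 14.63 above 13.71 and 13.83 without manipulation, while the combined pools at 11.36 and 10.31 lay below 13.09 and 12.84 with Trim21 mRNA. Its interaction was −3.13 ± 0.47 (adjusted p = 0.018), and that of thioredoxin, Txn1, was −2.02 ± 0.27. The antibody difference of Txn1 was 1.51 with antibody alone and −0.50, at the class limit, with Trim21 mRNA. Taldo1 of the pentose phosphate pathway (−1.75 ± 0.25) was larger with both, and its call ended after loess (adjusted p = 0.060). The peroxiredoxin gene Prdx4 (−2.38 ± 0.32) had antibody-alone pools at 12.98 and 13.48 beside 13.01 and 12.97 without manipulation, and a Trim21 mRNA difference of −0.50. In the other direction Trem1, a receptor gene of myeloid cells, was at 5.66 and 5.96 with antibody alone, 6.23 and 6.58 without manipulation, 6.70 and 6.26 with Trim21 mRNA and 9.37 and 9.15 with both (interaction 3.38 ± 0.32, adjusted p = 0.0052). Spry4, an inhibitor of growth factor signalling (3.31 ± 0.51), and Tmem181a (3.62 ± 0.37) shared that class.

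Genes of Mediator, the complex that links transcription factors to RNA polymerase II, were looked up after their values were seen. Of 29 measured, Med4 (−3.06 ± 0.30), Med6 (−2.70 ± 0.24) and the cyclin Ccnc (−2.74 ± 0.52) were called lower, all of the both-components class, which is 10.3% of the list against 13.7% at like level, and the median of the 29 was −0.12. The antibody-alone differences of the 3 were −0.22, −0.33 and −0.10, and Ccnc lost its call after median centring (adjusted p = 0.055). The antibody-alone pools of Ccnc, at 10.16 and 11.33, lay on either side of the non-manipulated pools at 11.05 and 10.65.

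Markers of other cell types had list medians near that of all genes. The medians were 0.03 for 22 cumulus and granulosa, 0.02 for 18 sperm, 0.08 for 15 oviduct and 0.01 for 11 blood and immune markers, and the levels of 13, 13, 10 and 11 of them were under 6 on every array. In these lists Cyp11a1, a steroid-making enzyme of cumulus and granulosa cells, was called lower (−2.77 ± 0.40): antibody-alone pools were at 9.93 and 9.05 and all others at 5.07 to 6.38. Epcam, an epithelial adhesion gene that early embryos also express, was called lower at −2.03 ± 0.27 but not once arrays were quantile normalized (adjusted p = 0.060). The summed level of a marker list (log2 of the summed linear levels) was, for cumulus markers, 11.93 to 12.86 without antibody, 11.61 and 11.78 with antibody alone and 10.07 and 10.39 in the combined pools. It was 9.95 to 10.05, 9.85 and 10.22, and 10.65 and 10.58 for sperm, 11.25 to 11.35, 11.95 and 11.88, and 10.45 and 10.31 for oviduct, and 8.21 to 8.37, 8.48 and 8.31, and 8.50 and 8.72 for blood markers. Their part in the gene lists above was not tested.

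The interaction depended on how abundant a transcript was. All genes with a mean level of 8 to 10 had a median interaction of −0.26 with 7.98% called lower, those at 10 to 12 −0.42 with 15.0%, those at 12 to 14 −0.71 with 24.2% and those above 14 −0.94 with 30.1%. At 2 to 6 the median was 0.04 and 0.0668% were called lower. After quantile normalization, which gives all arrays the same distribution, the 4 upper medians were 0.06, 0.10, −0.07 and −0.24.

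**Figure D4:**
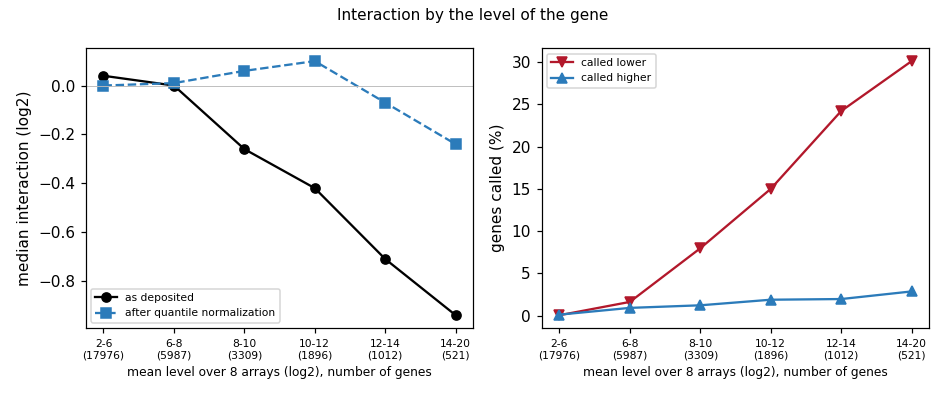
Interaction by mean level over the 8 arrays (log2 bins, number of genes in brackets): the left panel gives the median interaction as deposited and after quantile normalization, the right panel the percent of genes called lower and higher. As deposited the median goes from 0.04 in the lowest bin to −0.94 in the highest, and the percent called lower from 0.0668 to 30.1.

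Of the 30 lists other than cell type markers, 4 had a share called lower at least 2 times that of genes of like level (ribosome assembly, proteasome, cytosolic ribosomal proteins, and NRF2 and redox genes), 9 lay between, and 17 were at or below it. The NRF2 and redox list stood at 2.02 times the share at like level, with 4 of 26 genes called lower. After quantile normalization the medians of the ribosome assembly, proteasome and ribosomal protein lists were −0.71, −0.81 and −1.05. The NRF2 and redox median was −0.23 after quantile normalization, from −0.35 as deposited. The mitotic, replication, RNA polymerase II and cullin-RING lists were then at −0.11, −0.16, −0.12 and −0.19, from −0.44, −0.40, −0.43 and −0.44 as deposited.

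**Figure D5:**
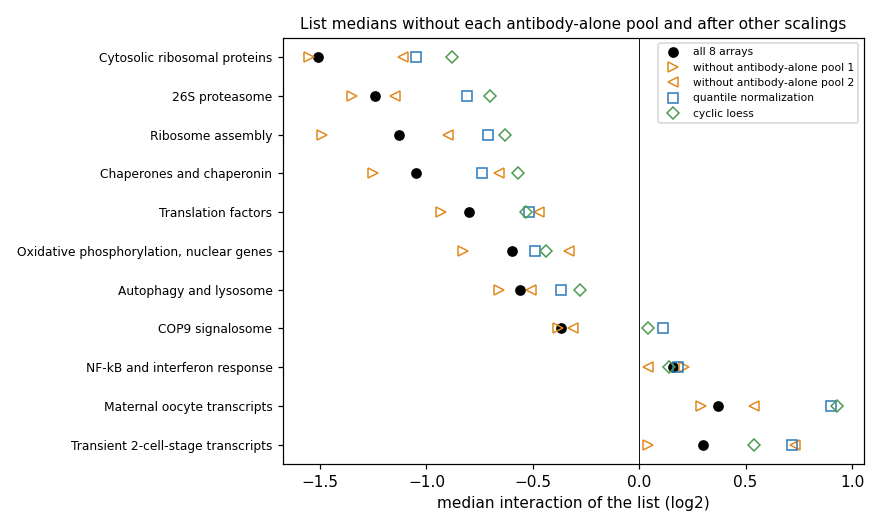
Median interaction (log2) of 11 gene lists with all 8 arrays, without either antibody-alone pool, and after quantile normalization or cyclic loess. Ribosomal protein, proteasome and ribosome assembly medians stay at or below −0.63 under each of these settings, and the COP9 median changes sign after both scalings.

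Counts of calls varied widely when single arrays were left out. Without 1 of the non-manipulated pools 89 or 76 genes were called lower and 24 or 23 higher, and without 1 of the Trim21 mRNA pools 171 or 165 and 32 or 34. Without combined pool 1 or 2 the counts were 831 or 481 lower and 127 or 98 higher. Without antibody-alone pool 1 or 2 they were 3035 or 3500 lower and 1029 or 2163 higher; the remaining pool is then assumed to vary like those of the other groups, and the widest spread leaves the fit. Over the 8 omissions the called genes ranged from 1 to 61 for ribosome assembly (median −1.49 to −0.90), from 2 to 22 for the proteasome (−1.35 to −1.15), from 0 to 25 for ribosomal proteins (−1.56 to −1.11), and from 0 to 24 higher for maternal genes (0.29 to 0.54). Of the 119 named genes that were called, all kept the call without either antibody-alone pool, 16 or 15 without a non-manipulated pool, and 14 without any 1 array, among them Phlda2, Dcaf13, Dppa5a, Psmc5, Nop14, Ndufs8 and Trem1. Under each of 3 other scalings 87 of the 119 kept call and direction. Part of the named genes were chosen because they hold under these scalings, so this count is no separate support. Over all 1253 called genes 666 kept call and direction under all 3.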

How the data were processed

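Late 2-cell embryos were measured on Affymetrix whole-transcript arrays, 8 arrays in 4 groups of 2 pools of 100 embryos; their number limits the precision. Per the labels' protocols, labelling used the GeneChip WT Pico chemistry. Affymetrix Expression Console is listed in the submitters' processing notes. Its version, the summarisation and the genome build are not given in the sources used. The authors deposited 65956 transcript clusters as log2 values whose distributions differ between arrays. One cluster holds another quantity, a whole number over 100 in the first column, and was dropped. Symbols came from the array annotation, 1199 of them updated: 31257 clusters named 1 gene, 1492 several and 33206 none. The cluster with the highest mean stood for each of the 441 genes on several clusters, leaving 30701 genes, with no filter or further normalization.

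Differences were tested with limma 3.58.1 (R 4.3.3; lmFit, eBayes, two-sided, 4 group means over 8 arrays, 4 residual degrees of freedom), and p was adjusted by Benjamini-Hochberg over all genes. The median SE of the interaction was 0.31. On data simulated for the interaction over 30701 genes, 35 of 50 genes given −3.0, 8 of 50 given −1.5, 9 of 50 given 1.5 and 29 of 50 given 3.0 were called the right way, with 2 false calls. Each simulated gene had the same spread in all groups, whereas the real antibody-alone pools lay much farther apart than the others. The simulated counts, false calls included, therefore do not carry over to these data. With 2 against 2 pools the smallest two-sided exact p is 0.33. Members, gene lists and tests were chosen with earlier results of these data known. Named genes were the 12 highest and 12 lowest interactions that hold under 3 scalings without overlap, the 5 highest and 5 lowest of the both-components and opposite classes, the COP9 subunits, Trim21, and up to 4 called genes a list (or the 2 of smallest p where none was called). The 13565 predicted, clone, small RNA, immunoglobulin, T-cell receptor, olfactory, vomeronasal, clustered histone and pseudogene symbols were counted but not named. Genes outside this rule, some beside their lists and the Mediator genes, were named after their values were seen. Pyruvate dehydrogenase and vacuolar ATPase genes were looked up in the same way. Of 14 measured vacuolar ATPase genes 3 were called lower, with a median interaction of −0.28. Alternatives were 3 scalings, a level filter, other cluster rules, other priors, array weights, a 2-fold threshold, a replicate block and each array left out.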

Additional observations from a re-analysis of the deposited data

Results flagged for a closer look

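In 52 genes the mean of the combined pools was at least 0.5 below that of the Trim21 mRNA pools while antibody alone was at least 0.5 above non-manipulated embryos, and in 54 genes the directions were the other way round. The difference between the contrasts is the interaction itself, called by limma for all 106. Phlda2 (−5.71 ± 0.29), Pdhb (−3.77 ± 0.30), Lgals1 (−3.21 ± 0.46), Rhebl1 (−3.14 ± 0.44) and Sod1 (−3.13 ± 0.47) were the most negative of them, and Tmem181a (3.62 ± 0.37), Trem1 (3.38 ± 0.32), Spry4 (3.31 ± 0.51), Cdk13 (2.09 ± 0.30) and Map3k12 (2.07 ± 0.21) the most positive that could be named.

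Among 34698 transcript clusters that name no gene or several, which no gene comparison uses, the interaction was called lower for 216 and higher for 54 when all 65955 clusters were fitted together. That is 0.623% and 0.156% of them, against 1.40% and 0.243% of all clusters.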

How the results depend on the processing

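The genes called lower (1061 as deposited) numbered 646 after cyclic loess, 161 against a 2-fold threshold, 698 when all 65955 transcript clusters were fitted together (counting only those that stand for genes), and 76 to 3500 when 1 array was left out. The genes called higher (192) numbered 652 after quantile normalization, 541 after loess, 32 against the 2-fold threshold, 101 in the fit of all clusters and 23 to 2163 without 1 array. Both-components genes lower (288) numbered 38 against the 2-fold threshold, 183 in the fit of all clusters and 16 to 696 without 1 array; those higher (58) numbered 254 after quantile normalization, 207 after loess, 36 after median centring, 32 with a trended robust prior, 3 against the 2-fold threshold, 21 in the fit of all clusters and 1 to 271 without 1 array. The 2-fold threshold is stricter by construction. The fit of all clusters adjusts p over more rows and estimates the prior anew. For it and for the other settings the cause was not tested. Replicate numbers did not pair the arrays (correlations between deviations of −0.191 to 0.143); with the replicate number as a block 751 genes were called lower and 112 higher, and both-components genes higher numbered 26. The COP9 median turned from −0.37 to 0.11 after quantile normalization and 0.04 after loess, and Cops5 from −0.25 to 0.97 without antibody-alone pool 2 (adjusted p = 0.022) and to −1.48 without pool 1 (the cause was not tested). On the linear scale 1046 of the 1061 and 191 of the 192 kept their sign. Of 2599 values of named genes under an alternative, 1927 kept direction and side of the threshold, 654 lost the call and 17 gained one. Part of the named genes were chosen for holding under the scalings, so these counts do not carry over to all called genes.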
